A study of Mus musculus with 8 samples.

Results

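The 9 genes described here are Nqo1, Gclm, Gclc, Txnrd1, Srxn1, Slc7a11, Gsr, Hmox1 and Sqstm1, a set of targets of the transcription factor NRF2 that includes the genes for making and recycling glutathione. They were chosen by name, and every probe set (a group of short array probes read as 1 value) that the platform annotation pairs with exactly 1 of these symbols was taken. This gave 19 probe sets among 34945 with exactly 1 symbol, or 9 genes among 18193. The brightest probe set over all arrays stood for each gene, and the other 10 were examined separately.

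Expression was measured in CD11b+ cells of 2 mouse strains, NOD and NOD.Idd3. NOD mice develop autoimmune diabetes, and NOD.Idd3 mice are congenic NOD mice in which the Idd3 region of chromosome 3, around Il2, comes from a diabetes-resistant strain. Cells of each strain were kept for 4 hours in medium alone (unstimulated) or with 5 µg/ml peptidoglycan (PGN), a polymer of bacterial cell walls that innate immune receptors sense. Each of the 4 groups had 2 arrays, labelled as biological replicates 1 and 2. The sources used here do not give the tissue, the age of the animals, or whether replicates were separate animals or pools. The p-values therefore reflect the spread among these arrays, which may be partly technical.

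NRF2 is held in the cytoplasm and sent for degradation by KEAP1. Oxidants and electrophiles block that step, and NRF2 then pairs with a small MAF protein on antioxidant response elements, DNA sites that the repressor BACH1 can also occupy. In macrophages and neutrophils, which make oxidants when they meet bacteria, its targets import cystine, build and recycle glutathione, drive the thioredoxin system, and break down quinones and heme.

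The core letters of the antioxidant response element are shown first because they are the DNA feature for which the set is named. Promoter windows, from 250 bases before to 50 bases after a transcription start, came from RefSeq on build GRCm38.p6 and matched 6 of the 9 members in 8 windows, 3 of them for Txnrd1. Gclc, Gsr and Hmox1 were not matched. Each window was searched on both strands for TGACNNNGC and for TGAGNNNGC. The first was present in 3 of the 8 member windows and in 12.4% of all 32851 windows. The second was present in 2 of the 8 and in 17.6% of all. At least 1 of them was present in 4 of the 8, against 27.8% of all windows. The matches upstream of a start are printed with 10 flanking bases on each side, the motif in capitals, read along the strand that holds the motif.
Gclm, chr3:122245413-122245441, minus strand: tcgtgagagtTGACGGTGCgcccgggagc
Txnrd1, chr10:82859104-82859132, minus strand: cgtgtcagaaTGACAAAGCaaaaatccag
Slc7a11, chr3:50443692-50443720, plus strand: aactccagctTGAGAAAGCgccaacatta
Srxn1, chr2:152105469-152105497, plus strand: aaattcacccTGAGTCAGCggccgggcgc
Srxn1, chr2:152105356-152105384, minus strand: ccagagaggaTGAGTCGGCtctcagtaga
A further Srxn1 match to TGACNNNGC, after the start, was counted but is not printed. The Srxn1 match nearest upstream of the start began 45 bases before the start and contains the letters TGAGTCA, which are also those of an AP-1 site. The Txnrd1 match began 92 bases, the Slc7a11 match 97 bases, the Gclm match 134 bases and the other Srxn1 match 158 bases before the start. The start is that of the window, which need not be the outer end of the gene. The Slc7a11 window, chr3:50443564-50443863, lies inside the gene span printed below, as does the matched Txnrd1 window, chr10:82858956-82859255. No match was found in the windows of Nqo1 and Sqstm1, which says only that these letters are not in those windows. A match is a run of letters, and binding was not measured.

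The deposited values were probe set intensities on a linear scale, and their log2 was analysed. Array medians lay between 6.38 and 6.65 and array maxima between 14.53 and 15.17 on that log2 scale, so the deposited values were alike in overall level. They had already been processed with RMA, so this does not show that the samples were alike before it. The CD11b chain itself (Itgam) read 7.87 to 9.02 and its partner chain Itgb2 13.11 to 13.46 on the 8 arrays. The summed linear intensities of the 5 stromal and 4 measured erythroid markers were 96 to 126 and 83 to 266. The 12 macrophage markers and 8 measured B cell markers had median strain differences of -1.25 and -1.35 on the log2 scale, NOD.Idd3 minus NOD. None was called without the replicate block, and with it 5 of the 12 and 6 of the 8 were lower, where 0.148% of all genes were called. Their part in any strain difference below was not tested. The 3′ minus 5′ log2 signal of Gapdh, a measure of RNA integrity, was 0.88 to 1.16 in NOD and 0.72 to 0.80 in NOD.Idd3, and its part in those differences was not tested either.

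PGN left the 9 members, each read from its brightest probe set, without a called change, in either strain or averaged over strains. Those probe sets lay at percentiles 92.2 to 99.8 of all genes by mean intensity. Whether that brightness limited the measured changes was not tested, and dimmer probe sets are given with each gene below. A call means a Benjamini-Hochberg adjusted p under 0.05 over all 18193 genes, from 1 limma model of the 4 group means. For the effect averaged over strains, 0 of 9 members were called where 11.3% of all genes were. In NOD it was 0 of 9 members against 3.94% of all genes, and in NOD.Idd3 0 of 9 against 3.14%. With the replicate number as a block in the limma model, again 0 of 9 members were called, against 16.9% of all genes averaged, 8.72% in NOD and 6.63% in NOD.Idd3. For none of the 9 did the 4 PGN arrays lie wholly above or below the 4 unstimulated ones, as they did for 18% of all genes. At an unadjusted p under 0.05 the limma counts were 1 of 9 members in NOD (Slc7a11), where 19.2% of all genes passed, 0 of 9 in NOD.Idd3 (15.4%) and 0 of 9 averaged (25%). The median log2 change of the 9 members was 0.09 in NOD, -0.07 in NOD.Idd3 and 0.01 averaged, and that of all genes was 0.03, 0.05 and 0.05. The averaged effect uses the same arrays as the 2 strain effects and is not a separate observation. In bulk samples such as these, fewer cells of a type and less RNA per cell cannot be told apart.

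**Figure D1:**
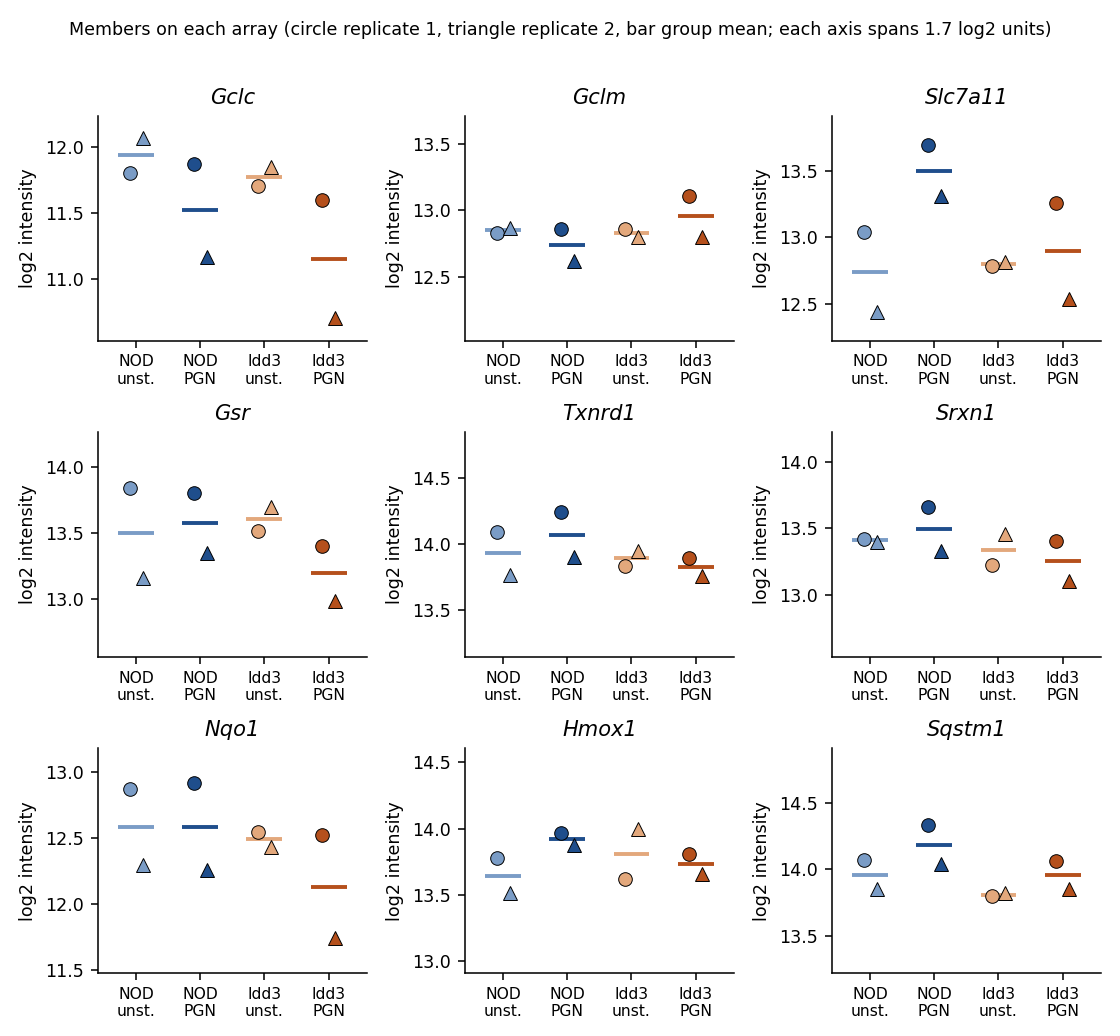
Log2 intensity (vertical axis) of the probe set that stands for each member on each of the 8 arrays, grouped along the horizontal axis by strain and treatment; circles are replicate 1, triangles replicate 2 and short bars group means, and Idd3 stands for NOD.Idd3. Slc7a11 reads 12.44 and 13.04 in unstimulated NOD cells and 13.31 and 13.70 with PGN, and Gclc is lowest, at 10.70, on NOD.Idd3 PGN replicate 2.

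Slc7a11 (chr3:50364936-50499087) encodes the transport chain of the cystine-glutamate exchanger, which brings in the cystine from which cells take cysteine for glutathione. On log2 scale its probe set 1420413_at read 13.04 and 12.44 in unstimulated NOD cells and 13.70 and 13.31 with PGN. In NOD.Idd3 it read 12.78 and 12.82 unstimulated and 13.26 and 12.54 with PGN. The NOD groups did not overlap, as was true of 45.2% of all genes in NOD, while in NOD.Idd3 the unstimulated arrays lay between the PGN arrays. The log2 change was 0.77 ± 0.31 (limma SE, 2 against 2 arrays; 95% interval 0.07 to 1.46) in NOD, with an unadjusted p of 0.0352 and a limma adjusted p of 0.219. It ranged from 0.47 without NOD unstimulated replicate 2 to 1.07 without NOD unstimulated replicate 1. In NOD.Idd3 it was 0.10 ± 0.31 (limma adjusted p = 0.937).

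Averaged over strains, the Slc7a11 change was 0.43 ± 0.22 (limma adjusted p = 0.26), and it ranged from 0.25 without NOD.Idd3 PGN replicate 1 to 0.61 without NOD.Idd3 PGN replicate 2. The difference between the strains' effects was -0.67 ± 0.43, with a 95% interval from -1.65 to 0.32, so these arrays do not separate the strains' responses. The gene's dimmer probe set 1443536_at read 9.31 and 7.46 in unstimulated NOD cells against 10.24 and 9.44 with PGN, and 8.80 and 9.26 against 9.89 and 8.87 in NOD.Idd3. Its change averaged over strains was 0.90 ± 0.41 (limma adjusted p = 0.213 over all probe sets). Both probe sets were thus higher on both PGN arrays of NOD, and neither was so in NOD.Idd3.

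Gclc (chr9:77754535-77794489) encodes the catalytic subunit of glutamate-cysteine ligase, the rate-limiting enzyme of glutathione synthesis. Its probe set 1455959_s_at read 11.80 and 12.07 in unstimulated NOD cells and 11.87 and 11.17 with PGN. It read 11.70 and 11.84 in unstimulated NOD.Idd3 cells and 11.60 and 10.70 with PGN. Both PGN arrays of NOD.Idd3 were below both unstimulated ones, and in that strain the groups of 47.9% of all genes did not overlap, in either direction. The second PGN replicate was the lower in each strain.

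The Gclc change was -0.41 ± 0.34 in NOD, -0.62 ± 0.34 in NOD.Idd3 and -0.52 ± 0.24 averaged over strains (95% interval -1.06 to 0.02; limma adjusted p = 0.22), the most negative averaged value of the 9. Taken by replicate number, PGN minus unstimulated was 0.07 and -0.11 for replicate 1 of NOD and NOD.Idd3, and -0.90 and -1.14 for replicate 2. The averaged value was -0.74 without NOD.Idd3 PGN replicate 1 and -0.29 without NOD.Idd3 PGN replicate 2. The gene's other probe set, 1424296_at, gave -0.64 ± 0.23 with an unadjusted p of 0.0239 and a limma adjusted p of 0.128.

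Gclm (chr3:122245487-122267215) encodes the modifier subunit of the same enzyme. Its probe set 1418627_at stayed within a narrow span, at 12.83 and 12.87 in unstimulated NOD cells, 12.86 and 12.62 with PGN, 12.86 and 12.80 in unstimulated NOD.Idd3 cells, and 13.11 and 12.80 with PGN. The averaged change was 0.01 ± 0.15, with a 95% interval from -0.33 to 0.34. A dimmer probe set, 1439050_at, gave -0.19 ± 0.21, so the sign for Gclm depends on the probe set read. The difference between the changes of the 2 subunits was not tested.

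Gsr (chr8:33653238-33698162) encodes glutathione reductase, which regenerates reduced glutathione from its oxidised form with NADPH. Its probe set 1421817_at read 13.84 and 13.16 in unstimulated NOD cells and 13.80 and 13.35 with PGN, and 13.52 and 13.70 in unstimulated NOD.Idd3 cells against 13.40 and 12.99 with PGN. The NOD groups overlapped, and the PGN arrays of NOD.Idd3 lay below its unstimulated arrays. In NOD.Idd3 the groups of 47.9% of all genes did not overlap, in either direction. The changes were 0.08 ± 0.29 in NOD and -0.41 ± 0.29 in NOD.Idd3 (limma adjusted p = 0.611), and their difference was -0.49 ± 0.41. The second probe set, 1421816_at, did not show the lower NOD.Idd3 values: its change there was 0.17 ± 0.35.

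Txnrd1 (chr10:82833951-82897724) encodes the cytosolic thioredoxin reductase. Its brightest probe set, 1421529_a_at, read 14.10 and 13.77 in unstimulated NOD cells, 14.24 and 13.90 with PGN, 13.84 and 13.95 in unstimulated NOD.Idd3 cells, and 13.90 and 13.76 with PGN. Treated and untreated arrays overlapped within each strain, and the averaged change was 0.03 ± 0.16 (95% interval -0.32 to 0.39). The dimmer probe sets 1424486_a_at and 1424487_x_at gave 0.31 ± 0.21 and 0.34 ± 0.21 averaged over strains, with limma adjusted p-values of 0.395 and 0.363.

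Srxn1 (chr2:152105524-152111376) encodes sulfiredoxin, which restores overoxidised peroxiredoxins. Its probe set 1419942_at read 13.42 and 13.40 in unstimulated NOD cells, 13.66 and 13.33 with PGN, 13.22 and 13.46 in unstimulated NOD.Idd3 cells, and 13.41 and 13.10 with PGN. Treated and untreated arrays overlapped in both strains. The averaged change was 0.00 ± 0.16 with a 95% interval from -0.36 to 0.36, and the 3 other probe sets gave 0.05, 0.13 and 0.26.

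Nqo1 (chr8:107388225-107403205) encodes a quinone reductase and is a commonly used readout of NRF2 activity. Its only probe set, 1423627_at, read 12.87 and 12.30 in unstimulated NOD cells and 12.91 and 12.26 with PGN, a difference between replicates that was far larger than the change of 0.00 ± 0.34. In NOD.Idd3 it read 12.55 and 12.43 unstimulated and 12.53 and 11.74 with PGN, for a change of -0.36 ± 0.34 (limma adjusted p = 0.741). By replicate number the NOD.Idd3 differences were -0.02 and -0.69, so the negative mean came from replicate 2.

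Hmox1 (chr8:75093618-75100593) encodes heme oxygenase-1, which breaks heme into biliverdin, iron and carbon monoxide. Its only probe set, 1448239_at, read 13.77 and 13.51 in unstimulated NOD cells and 13.97 and 13.88 with PGN. These groups did not overlap, as was true of 45.2% of all genes in NOD, in either direction. In NOD.Idd3 the unstimulated values of 13.62 and 14.00 spanned the PGN values of 13.81 and 13.66. The change was 0.28 ± 0.22 in NOD (limma adjusted p = 0.544), -0.07 ± 0.22 in NOD.Idd3 and 0.10 ± 0.16 averaged.

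Sqstm1 (chr11:50200152-50210820) encodes p62, an autophagy receptor that binds KEAP1 and is itself an NRF2 target. Its probe set 1450957_a_at read 14.07 and 13.85 in unstimulated NOD cells and 14.34 and 14.04 with PGN, and 13.80 and 13.82 in unstimulated NOD.Idd3 cells against 14.06 and 13.85 with PGN. Taken by replicate number, PGN minus unstimulated was 0.27 and 0.19 in NOD and 0.27 and 0.03 in NOD.Idd3. The share of all genes with 4 such differences of the same sign was not computed. Whether arrays with the same replicate number belong together is not given. The averaged change was 0.19 ± 0.15 (95% interval -0.15 to 0.53; limma adjusted p = 0.483).

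The dimmer Sqstm1 probe set, 1444021_at, read 11.82 and 11.30 in unstimulated NOD cells and 12.52 and 12.13 with PGN, and 11.81 and 11.11 in unstimulated NOD.Idd3 cells against 12.06 and 11.69 with PGN. Its averaged change was 0.59 ± 0.22, with an unadjusted p of 0.024 and a limma adjusted p of 0.128 over all probe sets, 11.3% of which were called. That fit called 0 of the 19 member probe sets averaged, 0 in NOD (4.01% of all probe sets) and 0 in NOD.Idd3 (3.03%). With the replicate number as a block in the same fit, a combination tried after the values were seen, the limma adjusted p of 1444021_at was 0.02 averaged (16.7% of all probe sets called) and 0.0468 in NOD (8.49% called). It was the only member probe set called with that block, and in NOD.Idd3 (6.42% called) 0 of the 19 were.

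**Figure D2:**
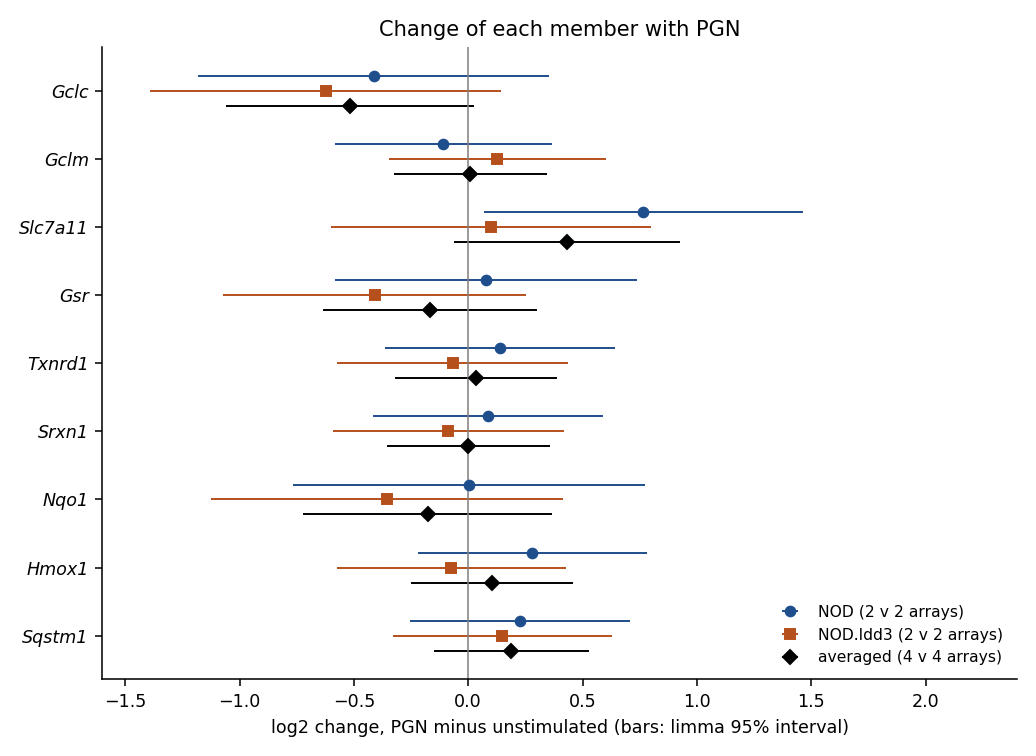
Log2 change with PGN (horizontal axis) of each member, for NOD, NOD.Idd3 and the average of the strains; symbols are limma estimates and lines their 95% intervals. The interval for Slc7a11 in NOD, 0.07 to 1.46, is the only one that does not include 0, and its adjusted p is 0.219.

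**Figure D3:**
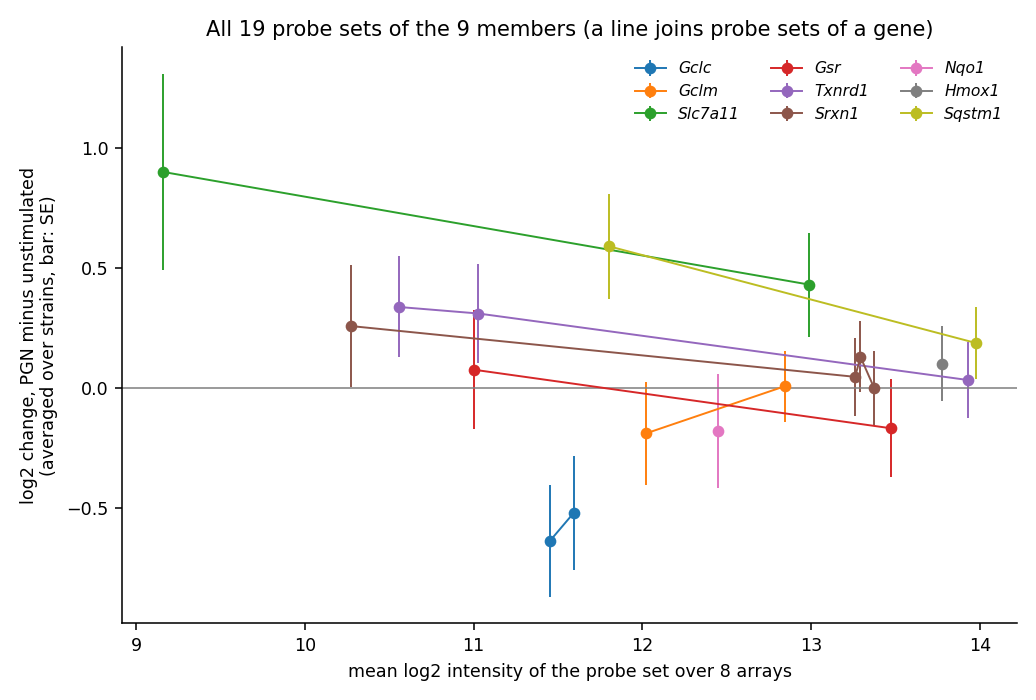
Log2 change with PGN averaged over strains (vertical axis) of all 19 member probe sets against their mean log2 intensity over the 8 arrays (horizontal axis); bars are limma standard errors and lines join probe sets of 1 gene. The dimmer probe sets of Slc7a11 and Sqstm1, at 0.90 and 0.59, lie above the brightest ones of those genes, at 0.43 and 0.19.

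Much of the members' variation followed single arrays. Replicate 1 exceeded replicate 2 for 9 of 9 members in the PGN groups of both strains, where the share of all genes was 47.6% in NOD and 40.6% in NOD.Idd3. It did so for 7 of 9 in unstimulated NOD cells (49.6% of all genes) and 2 of 9 in unstimulated NOD.Idd3 cells (43.3%). NOD.Idd3 PGN replicate 2 held the lowest of the 8 values for 5 members (Nqo1, Gclc, Txnrd1, Srxn1 and Gsr), as it did for 11.2% of all genes. NOD PGN replicate 1 held the highest value for Nqo1, Txnrd1, Srxn1, Slc7a11 and Sqstm1, as it did for 17.2% of all genes. Across the 8 arrays the values of Nqo1 and Gsr had a Pearson r of 0.91, those of Slc7a11 and Sqstm1 0.90, and those of Txnrd1 and Gsr 0.87, while Gclm reached at most 0.32 with any other member, Gclc. These are descriptions over 8 arrays that share groups and array effects.

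The strains did not differ by a called amount in any member. Averaged over conditions, 0 of 9 members and 0 of all 18193 genes (0%) were called by limma for the strain difference, and at an unadjusted p under 0.05 it was 0 of 9 against 1175 genes (6.46%). The estimates, NOD.Idd3 minus NOD, were negative for 8 of the 9, from -0.27 ± 0.24 for Nqo1 to -0.01 ± 0.16 for Hmox1, and 0.10 ± 0.15 for Gclm. Their median was -0.16, that of all genes -0.03. The sign depends on the probe set here as well. Dimmer probe sets gave 0.21 and 0.18 for Txnrd1, 0.30 for Gsr, 0.09 for Slc7a11 and -0.12 for Gclm. Those of Gclc, Srxn1 and Sqstm1 stayed negative. Arrays of the strains overlapped for each of the 9 members, as they did for all but 2.85% of genes. Slc7a11 and Gclm lie on chromosome 3, 13.2 and 85.1 Mb from Il2, and their strain differences were -0.27 ± 0.22 and 0.10 ± 0.15.

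The response to PGN did not differ between the strains by a called amount either. limma called 0 of 9 members and 0 of 18193 genes (0%), and at an unadjusted p under 0.05 it was 0 of 9 against 314 genes (1.73%). The difference, NOD.Idd3 effect minus NOD effect, was negative for 8 of 9, with a median of -0.21 against 0.03 for all genes. The most negative values were those of Slc7a11 (-0.67 ± 0.43), Gsr (-0.49 ± 0.41), Nqo1 (-0.36 ± 0.48) and Hmox1 (-0.35 ± 0.31), and that of Gclm was 0.24 ± 0.29. All 9 intervals include 0, and the members share the 8 arrays. The share of all genes with a negative difference was not computed. The sign also depends on the probe set: the dimmer one of Gsr gave 0.18 and that of Gclm -0.39, while the dimmer ones of the other members stayed negative. Without NOD.Idd3 PGN replicate 2 the difference was 0.03 for Nqo1, 0.24 for Gclc and -0.30 for Slc7a11.

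Other genes of the pathway were read from lists by role, and the values below are averaged over strains, where 11.3% of all genes were called, 4.86% higher and 6.4% lower. Among 13 regulators and partners of NRF2, 1 rose and 1 fell (15.4% called; median 0.08). Maff, a small MAF partner, was the one that rose: its log2 values were 9.30 to 10.07 on the 4 unstimulated arrays and 11.37 to 12.27 on the 4 PGN arrays, a change of 2.21 ± 0.22 (limma adjusted p = 0.000798). The small MAF genes Mafk and Mafg gave 0.63 ± 0.20 (limma adjusted p = 0.0821, falling under the threshold at 0.0278 once replicate number was a block) and 0.31 ± 0.16. Nfe2, which encodes an NRF2-related factor best known from platelet formation, fell by 2.13 ± 0.21 (limma adjusted p = 0.000714), from 10.69 to 11.55 on the unstimulated arrays to 8.42 to 9.56 with PGN.

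Some cell type markers moved beside Nfe2. Of 6 platelet markers, 2 fell (Pf4 and Ppbp), and the summed linear intensity of the 6 was 2057 to 6679 unstimulated and 835 to 1572 with PGN. Pf4 and Ppbp made up most of that sum on the unstimulated arrays, and the other 4 were not called. Itga2b read 5.446 to 5.99 unstimulated and 5.705 to 6.685 with PGN, and Gp9 6.316 to 6.775 and 6.35 to 6.663. Itgb3 read 7.771 to 8.53 and 6.697 to 7.914. Of 9 measured neutrophil markers, 3 fell and 6 were not called, with sums of 110700 to 144688 unstimulated and 98537 to 104106 with PGN. Cxcr2 read 9.875 to 10.422 unstimulated and 7.314 to 9.468 with PGN, Mmp8 12.498 to 13.009 and 11.226 to 11.902, and Mmp9 12.737 to 13.277 and 10.899 to 11.47. S100a8, in contrast, read 14.341 to 14.652 and 14.315 to 14.555, Ngp 13.676 to 14.131 and 13.489 to 13.716, and Camp 13.953 to 14.675 and 13.723 to 14.484. Of 6 measured T cell markers, 1 fell (Cd3d), with sums of 3586 to 6222 unstimulated and 1592 to 2442 with PGN. Cd3d made up most of those sums, and the other 5 were not called. Of 4 measured NK cell markers 1 fell, and of 12 macrophage and 8 B cell markers 1 each rose. The NK cell marker Gzma went the other way, at 7.007 to 9.268 unstimulated and 8.069 to 10.406 with PGN. With the replicate block, where 16.9% of all genes were called, 1 NK cell marker rose and 2 fell. In that fit 2 B cell markers rose and 2 fell, and 2 macrophage markers rose. An array intensity has no true 0, and the platelet marker Gp1bb read 4.98 to 5.22 on the log2 scale. The part of these cells in the lower Nfe2 and in the falls described below was not tested.

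The gene for NRF2 itself, Nfe2l2, gave -0.03 ± 0.23 with its brightest probe set 1416543_at, which read 12.86 to 13.38 unstimulated and 12.31 to 13.48 with PGN. A dimmer probe set, 1457117_at, named here after its values were seen, read 9.19 to 9.64 unstimulated and 9.82 to 10.96 with PGN, a change of 1.05 ± 0.19 (limma adjusted p = 0.00947 over all probe sets). The 2 probe sets therefore give different answers for Nfe2l2. The genes of its inhibitor, Keap1, and of the repressor Bach1 gave -0.09 ± 0.17 and -0.09 ± 0.19.

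Partners of Slc7a11 were listed with amino acid transporters and targets of ATF4, a stress factor that also acts on Slc7a11. Of 16 genes, 0 were called by limma, 6 passed at an unadjusted p under 0.05, and the median change was 0.40. Slc3a2, the heavy chain that carries the Slc7a11 protein to the membrane, gave 0.36 ± 0.14 (limma adjusted p = 0.16). The genes with the smallest p were Psat1 (0.72 ± 0.20), Shmt2 (0.68 ± 0.23), Cth (0.67 ± 0.23) and Cebpb (0.61 ± 0.22), with limma adjusted p-values of 0.0546 to 0.126. Cth was dim, at 3.10 to 4.40 over all arrays. Of the 3 dimmer Shmt2 probe sets, 2 rose, at 0.74 ± 0.15 and 0.73 ± 0.17 (limma adjusted p = 0.0171 and 0.0243 over all probe sets), as did that of Cebpb, at 0.92 ± 0.25 (0.0485). With the replicate number as a block, 3 of the 16 rose, where 16.9% of all genes were called.

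In the glutathione list without the members, 1 of 15 genes rose and 6 fell (46.7% called; median -0.47). Glo1, the first glyoxalase, which uses glutathione to clear methylglyoxal, fell by 1.29 ± 0.18 (limma adjusted p = 0.00307), from 10.08 to 10.61 unstimulated to 8.86 to 9.44 with PGN. The glutathione peroxidase genes Gpx1 and Gpx4 fell, with log2 changes of -1.13 ± 0.21 and -0.83 ± 0.15. Gss, glutathione synthetase, the step after Gclc and Gclm, fell by 1.15 ± 0.26 (limma adjusted p = 0.0258), and Ggct, which degrades gamma-glutamyl dipeptides, rose by 1.44 ± 0.30. Hagh and Glrx2, named after their values were seen because they complete the count, fell, with log2 changes of -0.63 ± 0.16 and -0.61 ± 0.16.

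That glutathione count was lower whichever array was left out, in fits with 1 array fewer. With 1 array left out it was 3 to 5 genes in place of 7, lowest without NOD unstimulated replicate 2, and with values under 32 set to 32 it was 2. Gss kept its call only without NOD PGN replicate 1 or NOD.Idd3 PGN replicate 1 (highest limma adjusted p of the others 0.0865). Ggct lost it without NOD unstimulated replicate 2, NOD PGN replicate 1 or NOD.Idd3 PGN replicate 1 (up to 0.066). Hagh and Glrx2 each lost it without 7 of the 8 arrays in turn (up to 0.152 and 0.173), all but NOD.Idd3 unstimulated replicate 1 for Hagh and NOD PGN replicate 2 for Glrx2. The 2 dimmer Hagh probe sets fell further, at -1.16 ± 0.19 and -1.56 ± 0.21 (limma adjusted p = 0.00586 and 0.00234 over all probe sets). Dimmer Ggct probe sets gave 1.37 ± 0.22 (0.00515) and 0.69 ± 0.20 (0.059), and the dimmer one of Gss gave -1.10 ± 0.31 (0.0552). Those of Glrx2 were not called, at -0.46 ± 0.17 (0.137) and -0.35 ± 0.18 (0.259). Glo1 and Gpx4 remained called under every setting that tested them.

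Among 19 glutathione transferase genes, 2 rose and 4 fell (31.6% called; median -0.15). Gsta2 and Gstt2 rose by 1.17 ± 0.17 and 1.62 ± 0.25, while Gstp1, Gsto1, Mgst2 and Gstz1 fell, with log2 changes of -0.85 ± 0.15, -0.95 ± 0.17, -1.92 ± 0.41 and -0.78 ± 0.20. Mgst2 and Gstz1 are named after their values were seen because they complete the count. Mgst2 kept its call only without replicate 1 of NOD unstimulated, NOD PGN or NOD.Idd3 PGN (highest limma adjusted p of the others 0.066), and Gstz1 only without NOD PGN replicate 1 (0.13). Gsta2 was a dim probe set, at 4.43 to 4.60 unstimulated and 4.73 to 6.45 with PGN, with the higher readings in NOD. Gstz1 was dim as well, at 3.88 to 5.32 over all arrays, and with values under 32 set to 32 its change was -0.23 (limma adjusted p = 0.085). Some transferase genes are close paralogs whose probes can cross-hybridise. Where that is so, which gene gave the signal is uncertain.

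Of 14 genes of the thioredoxin and peroxiredoxin systems, 0 were called by limma, 4 passed at an unadjusted p under 0.05, and the median was -0.31. Txn1, the substrate of the Txnrd1 enzyme, gave -0.09 ± 0.16, and the smallest p was that of Sesn1, a sestrin, at -0.97 ± 0.29 (limma adjusted p = 0.071). Among its dimmer probe sets, 2 fell, at -1.56 ± 0.22 and -1.22 ± 0.24 (limma adjusted p = 0.00284 and 0.0127 over all probe sets), and the third gave -0.59 ± 0.26. With the replicate block 2 of the 14 genes fell, and with the mean of all probe sets 1 did. Of 9 genes that supply NADPH, which Gsr, Txnrd1 and Nqo1 consume, 3 fell and none rose (33.3% called; median -0.34). The mitochondrial and cytosolic isocitrate dehydrogenase genes Idh2 and Idh1 fell, with log2 changes of -2.10 ± 0.20 (limma adjusted p = 0.000675) and -1.27 ± 0.18 (0.00293). Tkt, transketolase, fell by 0.56 ± 0.15 and kept its call only without NOD unstimulated replicate 1 (highest limma adjusted p of the others 0.138). The dimmer Tkt probe sets fell as well, at -0.72 ± 0.16 and -0.84 ± 0.22 (limma adjusted p = 0.021 and 0.0375 over all probe sets). A dimmer Idh2 probe set gave -0.55 ± 0.19.

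Around Hmox1, 1 of 14 heme and iron genes rose and 1 fell (14.3% called; median 0.08). Tfrc, the transferrin receptor, rose by 1.00 ± 0.19 (limma adjusted p = 0.0116), and its dimmer probe sets gave 0.20 ± 0.30 and 0.09 ± 0.16. Without NOD.Idd3 unstimulated replicate 1 its limma adjusted p was 0.0502. Fech, which inserts iron into heme, fell by 0.60 ± 0.14 and kept its call only without NOD unstimulated replicate 1 (highest limma adjusted p of the others 0.118). Its next dimmer probe sets gave -0.82 ± 0.15 (limma adjusted p = 0.00846 over all probe sets) and -0.75 ± 0.22 (0.063), and the dimmest 0.05 ± 0.18. Fth1, the ferritin heavy chain, gave 0.11 ± 0.14. Of 14 autophagy genes listed with Sqstm1, Tax1bp1 rose by 0.75 ± 0.16 and Calcoco1 fell, with a log2 change of -1.50 ± 0.17 (14.3% called, median -0.04). The dimmer Tax1bp1 probe sets rose as well, at 0.90 ± 0.19, 0.87 ± 0.21 and 0.76 ± 0.20 (limma adjusted p = 0.0179, 0.0303 and 0.0466 over all probe sets). A dimmer Calcoco1 probe set gave -0.33 ± 0.17 (0.289). Tax1bp1 kept its call only without NOD unstimulated replicate 1, NOD PGN replicate 1 or NOD.Idd3 PGN replicate 2 (highest limma adjusted p of the others 0.0846).

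Of 19 further genes known as NRF2 targets, 1 rose and 2 fell (15.8% called; median -0.26), and with the replicate block 2 rose and 6 fell. Nqo2 and Ephx1, encoding a second quinone reductase and microsomal epoxide hydrolase, fell, with log2 changes of -1.45 ± 0.38 and -0.92 ± 0.25. Sod2, the mitochondrial superoxide dismutase and also a target of NF-kB, rose by 0.68 ± 0.18. With 1 array left out this count ran from 0 to 4, and Sod2 and Ephx1 kept their calls only without NOD unstimulated replicate 1, and Nqo2 only without that array or NOD.Idd3 unstimulated replicate 1 (highest limma adjusted p of the others 0.161, 0.141 and 0.138). A dim Sod2 probe set, 1417194_at, named after its values were seen, read 7.15 to 8.56 unstimulated and 10.02 to 10.21 with PGN, a change of 2.23 ± 0.25 (limma adjusted p = 0.00104). The remaining Sod2 probe sets, 1417193_at and 1454976_at, gave 0.83 ± 0.19 and 0.43 ± 0.24 (limma adjusted p = 0.0257 and 0.316 over all probe sets). Cd36 had the most negative change of the 19 genes and was not called over all genes. In the fit of all probe sets each Cd36 probe set fell, at -1.54 ± 0.42, -1.96 ± 0.51 and -2.52 ± 0.55 (limma adjusted p = 0.0485, 0.039 and 0.0207). The 6 measured NADPH oxidase genes, whose products make the oxidants, had 0 called by limma, 0 at an unadjusted p under 0.05, and changes from -0.21 to 0.10.

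**Figure D4:**
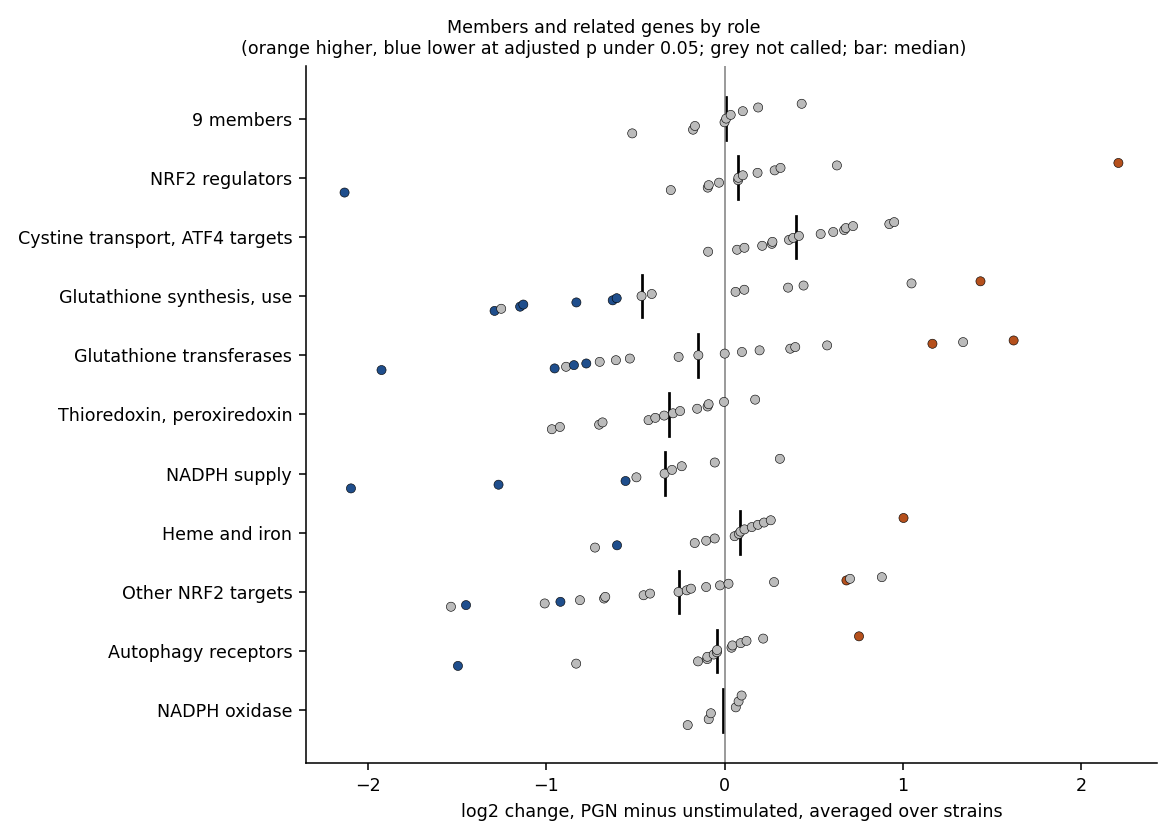
Log2 change with PGN averaged over strains (horizontal axis) for the 9 members and the 10 related lists; each point is 1 gene, coloured where limma called it, and each bar is a median. The members lie between -0.52 and 0.43 with none called, and the called genes of the other lists lie between -2.13 and 2.21.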

How the data were processed

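CD11b+ cells were profiled on 8 single-colour arrays. The authors deposited 1 linear intensity per probe set, made with RMA per the submitters' processing notes; the sources used here do not give its version, software or chip definition. The log2 of each deposited value (3.97 to 42906) was taken, since the planned tests assumed log2 values, and no further normalization or filter was applied. Of 45101 probe sets, 64 controls, 9160 without a symbol and 932 with several were left out. Of the 34945 kept, 34741 matched RefSeq (GRCm38.p6) by gene ID.

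limma 3.58.1 in R 4.3.3 fitted the 4 group means (4 residual and 4.69 prior degrees of freedom), with 5 contrasts and Benjamini-Hochberg adjustment over all genes. The fit was tested on simulated data. The members, related lists and alternatives were chosen with earlier results of these data known. Named besides the members were up to 4 genes a list with the smallest p and the members' only partners. Genes most like a called member were to be named, and none was called.

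The sources used here do not say whether arrays with the same replicate number belong together. Replicate 1 minus replicate 2 correlated between groups at 0.167 to 0.415 over 6 group pairs. A replicate block was therefore an alternative, as were a term for an array-name suffix (RR1, meaning not given), a variance trend, a dim-gene filter, a floor of 32, other uses of the probe sets, quantile normalization and leaving out each array. The number of arrays limits the precision.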

Additional observations from a re-analysis of the deposited data

How the results depend on the processing

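None of the 9 members was called in any of the 5 contrasts under any of the alternatives, 765 values in all. Of these, 55 turned sign, none called either way, and the cause was not tested. The values are 1 per gene for each contrast and alternative. They leave out the dimmer Sqstm1 probe set 1444021_at, which was called with the replicate block in the fit of all probe sets. Reading the mean of all probe sets turned Gclm to -0.128 in NOD.Idd3, -0.0896 averaged, -0.0758 for the difference between strains' effects and -0.0111 for the strain difference; Txnrd1 to 0.0297 in NOD.Idd3 and 0.0801 for the strain difference; Srxn1 to 0.11 averaged; and Gsr to 0.0793 for the strain difference. It also gave Nfe2l2 0.51, Keap1 0.0181 and Rac1 0.0045 averaged. Quantile normalization gave Nqo1 -0.0422 in NOD, Gclm -0.0203 averaged, Sqstm1 0.0274 for the difference and Hmox1 0.0342 for the strain difference. The RR1 term gave Slc7a11 -0.0715 in NOD.Idd3, and Gclm -0.00287 and Txnrd1 -0.0306 averaged. Without _x_at and _s_at probe sets Fth1 was -0.00888.

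Leaving out each array in turn spanned 0 for 25 results, none called. In NOD the ranges were -0.326 to 0.33 (Nqo1), -0.229 to 0.0107 (Gclm), -0.0324 to 0.307 (Txnrd1), -0.077 to 0.249 (Srxn1) and -0.262 to 0.416 (Gsr). In NOD.Idd3 they were -0.747 to 0.0352 (Nqo1), -0.0283 to 0.282 (Gclm), -0.139 to 0.00101 (Txnrd1), -0.241 to 0.0676 (Srxn1), -0.264 to 0.464 (Slc7a11) and -0.266 to 0.117 (Hmox1). Averaged they were -0.372 to 0.0186 (Nqo1), -0.0686 to 0.0863 (Gclm), -0.0506 to 0.119 (Txnrd1), -0.0818 to 0.0813 (Srxn1), -0.336 to 0.00328 (Gsr), -0.259 to 0.196 (Nfe2l2), -0.19 to 0.000752 (Keap1), -0.217 to 0.0395 (Bach1) and -0.18 to 0.00112 (Txn1). For the difference they were -0.749 to 0.0331 (Nqo1), -0.658 to 0.236 (Gclc) and -0.225 to 0.0705 (Sqstm1), and for the strain difference -0.308 to 0.0315 (Gsr) and -0.109 to 0.0823 (Hmox1).

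Counts over all genes moved more. The replicate block, which pairs arrays by number, called 1586 genes in NOD (717 without it), 1207 in NOD.Idd3 (572), 3082 averaged (2049) and 27 for the strain difference (0), and changed no member's call. The floor of 32 gave 102, 75, 930, 5 for the strain difference and 5 for the difference. Testing every probe set called 1403, 1058 and 3933 of 34945 probe sets, near the same shares (4.01, 3.03 and 11.3%) as of genes (3.94, 3.14 and 11.3%). The RR1 term gave 235 genes in NOD.Idd3. With 1 array left out the counts were 77 to 876 in NOD, 56 to 624 in NOD.Idd3 and 1111 to 2139 averaged, lowest without NOD PGN replicate 2, NOD.Idd3 PGN replicate 2 and NOD.Idd3 unstimulated replicate 2. Fewer arrays or no pairing change the residual spread; other causes were not tested. Of 25 related genes called, none reversed, and 10 kept the call under every setting that tested them: Maff, Nfe2, Glo1, Gpx4, Gsta2, Gstp1, Gsto1, Idh1, Idh2 and Calcoco1. Gpx1 and Gstt2 lost it only with the floor (limma adjusted p = 0.0757 and 0.0658).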
